A study of Mus musculus with 12 samples.

Results

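The RNA of 8 trafficking genes was measured by RNA sequencing in murine CD8 T cells that carry OT-I, 1 transgenic T cell receptor, and the Cas9 nuclease. They are the chemokine receptor genes Cxcr3, Cxcr4, Cxcr6, Ccr2, Ccr7 and Ccr8, the sphingosine-1-phosphate receptor gene S1pr1, and Klf2, which encodes a transcription factor. The 8 genes were matched by symbol to Ensembl identifiers out of 46603 identifiers counted, and all 8 passed the filter on low counts that kept 13167 genes. They were chosen as named receptors and homing genes, though with earlier results of these data known.

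There were 12 libraries in 6 groups of 2. Cells with a control guide received either water as vehicle or 100 µM AGN192403, a small molecule first described as an agonist of imidazoline receptors and used here to lower TMED proteins, and cells with Tmed10 guides (KO) were given water. TMED10 is a cargo receptor of the early secretory pathway. Each of these 3 conditions was sampled after 24 h at rest (Rest) and on a plate coated with anti-CD3 at 2.5 µg/mL, an antibody that triggers the T cell receptor (activated cells). All groups shared the OT-I receptor, Cas9, an earlier stimulation with anti-CD3 and anti-CD28 before the guides were delivered by retrovirus, puromycin, and days of culture with IL-2, IL-7 and IL-15, so that resting means not restimulated and not naive. The KO cells are a guide-transduced, puromycin-selected population, not 1 clone. Nothing in the labels says whether the libraries of a group come from separate cultures or mice, so p-values measure the spread between these libraries, which may be technical.

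T cells leave lymphoid tissue along a gradient of sphingosine-1-phosphate that they sense through S1PR1, and KLF2 is a factor known to drive S1pr1 transcription. CCR7 does the opposite work: it brings T cells into lymph nodes and holds them in the T cell zone. CXCR3, CCR2 and CXCR6 steer effector and memory T cells into inflamed tissue and tumors, CCR8 is best known from skin-homing and regulatory T cells, and CXCR4 reads CXCL12, the chemokine of bone marrow and other stromal niches. Stimulation through the T cell receptor is known to silence KLF2 and S1PR1, which keeps responding cells in place.

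Klf2 and Cxcr3 are the members whose RNA fell most on activation. Cxcr4 was lower with AGN192403 than with vehicle in both states. Cxcr6 fell on activation in all conditions but was higher in activated KO than in activated control cells. The bases before their annotated first exons are printed here for comparison, from the RefSeq promoter table on GRCm38.p6, in the direction of transcription. Capitals mark 2 short patterns: CACCC or its reverse complement GGGTG, the letters of a KLF site, and GGAAA or its reverse complement TTTCC, the core letters of an NFAT site. Klf2 is at chr8:72318812-72319032 on the plus strand, Cxcr3 at chrX:101734270-101734397 on the minus strand, Cxcr4 at chr1:128592300-128592549 on the minus strand and Cxcr6 at chr9:123806227-123806474 on the plus strand.
Klf2: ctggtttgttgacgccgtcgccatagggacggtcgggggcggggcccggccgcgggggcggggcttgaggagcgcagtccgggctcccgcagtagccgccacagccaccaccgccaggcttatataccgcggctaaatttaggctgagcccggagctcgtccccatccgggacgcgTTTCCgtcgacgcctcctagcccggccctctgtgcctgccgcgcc
Cxcr3: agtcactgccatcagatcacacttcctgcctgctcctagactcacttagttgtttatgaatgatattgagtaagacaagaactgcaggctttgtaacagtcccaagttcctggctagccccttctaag
Cxcr4: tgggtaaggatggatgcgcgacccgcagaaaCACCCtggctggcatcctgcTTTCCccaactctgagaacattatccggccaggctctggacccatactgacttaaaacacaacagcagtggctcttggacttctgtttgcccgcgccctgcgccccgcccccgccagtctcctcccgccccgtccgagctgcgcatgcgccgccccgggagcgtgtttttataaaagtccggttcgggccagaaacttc
Cxcr6: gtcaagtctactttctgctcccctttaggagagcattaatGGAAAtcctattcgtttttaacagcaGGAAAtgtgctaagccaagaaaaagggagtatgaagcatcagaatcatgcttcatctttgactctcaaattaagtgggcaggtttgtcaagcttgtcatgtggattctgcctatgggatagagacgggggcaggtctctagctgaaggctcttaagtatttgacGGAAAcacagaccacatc

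Of the 8 members, 6 had a window of 300 bases in that table, from 250 before to 50 after the start: Cxcr3, Cxcr4, Cxcr6, Ccr2, Ccr8 and Klf2. The windows fall into a CpG-rich and a CpG-poor kind. The Klf2 window held 32 CG dinucleotides at 69.3% G and C, and the Cxcr4 window 20 at 59.3%. The windows of Ccr2, Ccr8, Cxcr6 and Cxcr3 held 1, 2, 3 and 4 CG dinucleotides, where the median of all 32851 windows was 7. The KLF letters occurred once each in the windows of Cxcr4, Klf2 and Ccr8 and in 57.5% of all windows. The NFAT core letters occurred 4 times in Ccr2, 3 times in Cxcr6, and once each in Cxcr4 and Klf2, and in 61.3% of all windows. The longer letters of a forkhead site (GTAAACA, 3.65% of all windows) and of an AP-1 site (TGACTCA, 5.20%) were in none of the 6 windows on either strand. No pattern overlapped another, and a match of letters is not a bound site.

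On GRCm38, Cxcr3 (ENSMUSG00000050232) lies at chrX:101731535-101734269, Cxcr4 (ENSMUSG00000045382) at chr1:128588199-128592293, Ccr7 (ENSMUSG00000037944) at chr11:99144196-99155077 and S1pr1 (ENSMUSG00000045092) at chr3:115710433-115715072, all on the minus strand. Klf2 (ENSMUSG00000055148) lies on the plus strand at chr8:72319033-72321656. The other 3 members share chromosome 9 and its plus strand: Ccr8 (ENSMUSG00000042262) at chr9:120092114-120094906, Cxcr6 (ENSMUSG00000048521) at chr9:123806475-123811760 and Ccr2 (ENSMUSG00000049103) at chr9:124101950-124113557, with 295 kb between the starts of Cxcr6 and Ccr2. All 8 are protein-coding. Cxcr6 sits inside Fyco1, a gene on the other strand, but their exons share 0 bases. No stretch of 65 bases, the read length, in the transcripts of 7 members occurs in another gene. In Ccr2, 92 of 6744 such stretches (1.36%) also occur in other genes, among them Arntl2, Ryr2 and Unc45a.

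Levels are CPM, a count divided by the size of its library in megacounts and scaled by the trimmed mean of M values (TMM), and errors are SD with n = 2. Total counts ran from 9089350 to 16481840 per library. Tmed10 was 116 and 117 CPM in resting control cells against 61.5 and 65.1 in resting KO cells, and 128 and 125 against 55.9 and 58.3 in activated cells, so the guides' target was lower in all KO libraries. With AGN192403, Tmed10 RNA was 133 and 138 CPM at rest and 135 and 144 after activation. The 10 CD8 T cell markers summed to between 3892 and 5541 CPM in every library, while the markers of NK cells reached at most 0.799 CPM, of erythroid cells 0.300, of mast cells and basophils 2.50 and of monocytes and macrophages, which also carry Ccr2, 3.89. Higher sums came from the lists of B cells (up to 8.08 CPM, led by Cd79b), dendritic cells (up to 25.9, led by Zbtb46), CD4 T cells (40.5 to 74.7, led by Zbtb7b), stromal cells (up to 97.8, led by Pecam1) and regulatory T cells (80.7 to 148, led by Ikzf4). Their part in the results was not tested. A higher level of the nuclear RNA Malat1 marked 3 libraries: resting control 1, activated control 1 and activated AGN192403 1 held 2594, 1631 and 1833 CPM, and the other library of their group 1540, 989 and 752. Calls on members that ended when those 3 were left out are given with the result. These are bulk samples, in which fewer cells with a transcript and less of it per cell cannot be told apart.

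**Figure D1:**
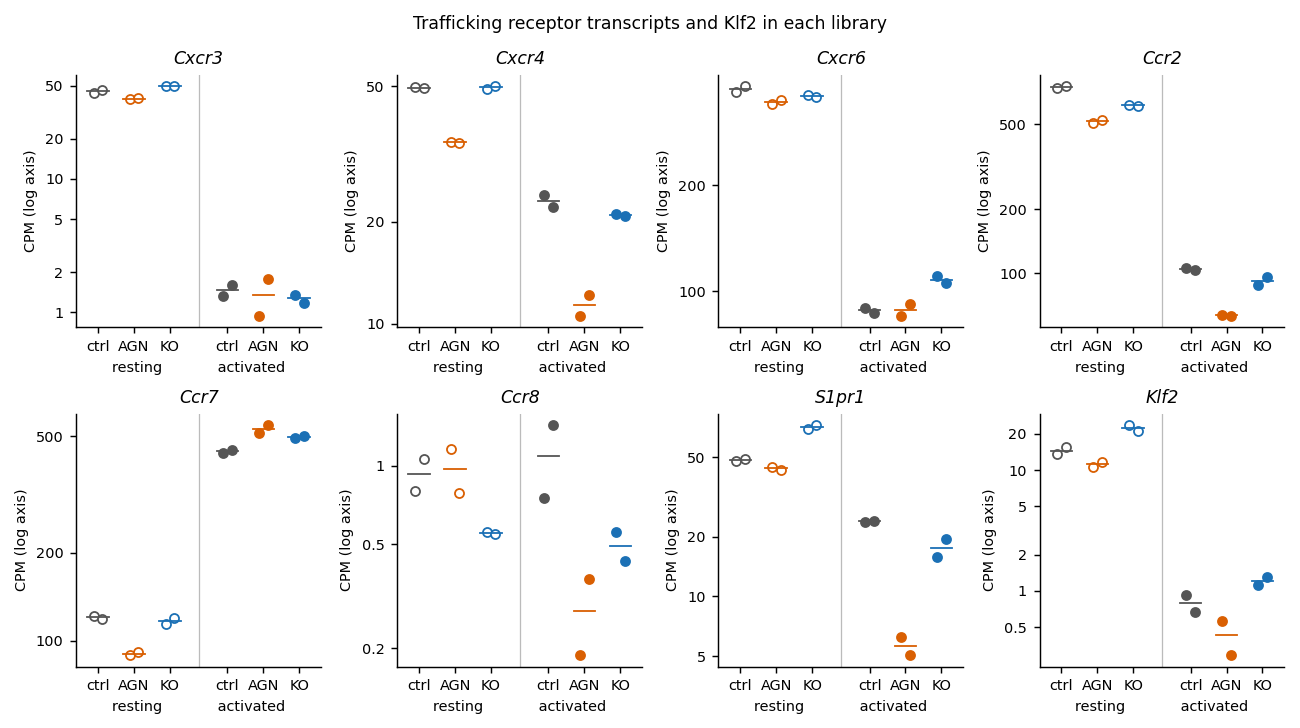
Level of each member in CPM (log axis) in each of the 12 libraries, grouped by state and by condition (ctrl, control guides and water; AGN, control guides and AGN192403; KO, Tmed10 guides and water). Points are libraries, open at rest and filled after activation, and bars are the mean of the group; Ccr7 is the only panel in which all activated libraries lie above all resting ones, and S1pr1 shows its lowest values, 6.23 and 5.07 CPM, in activated AGN192403 cells.

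To compare members with each other, levels were divided by exon length (CPM per kb). In resting control cells the order was Cxcr6 (194 ± 5.42 CPM per kb), Ccr2 (111 ± 1.72), Ccr7 (60.6 ± 0.948), Cxcr4 (27.4 ± 0.0967), Cxcr3 (26.1 ± 0.855), S1pr1 (16.0 ± 0.261), Klf2 (7.86 ± 0.707) and Ccr8 (0.791 ± 0.156). The inflammatory receptors Cxcr6 and Ccr2 thus stood above the lymph node receptor Ccr7 before restimulation. In activated control cells Ccr7 led at 224 ± 2.92 CPM per kb, followed by Cxcr6 at 45.7 ± 1.21, Ccr2 at 15.5 ± 0.237, Cxcr4 at 12.7 ± 0.721 and S1pr1 at 7.82 ± 0.0781, while Ccr8, Cxcr3 and Klf2 were all under 1. Within a group, neighbors in this order overlapped within 1 SD only at the bottom: Ccr8 and Cxcr3 in activated control cells, Ccr8 and Klf2 in activated AGN192403 cells, and Cxcr3 and Klf2 in activated KO cells. The Ccr2 value depends on its long exon union of 6760 bases from 4 annotated transcripts, against 1175 to 3046 bases for the other members.

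On activation the inflammatory receptors fell and the lymph node receptor rose. In control cells 6 members fell (Cxcr3, Klf2, Ccr2, Cxcr6, Cxcr4 and S1pr1), 1 rose (Ccr7) and Ccr8 did not pass the test, with a median log2 change of -1.60 over the 8 against -0.02 over all genes. The background was high: 36.4% of all tested genes rose and 37.4% fell at an adjusted p under 0.05 (edgeR's quasi-likelihood test, Benjamini-Hochberg over all genes). The same 6 members fell and Ccr7 rose in KO cells, where 37.2% of genes rose and 36.5% fell. In AGN192403 cells Ccr8 was called lower as well, beside 33.9% of genes higher and 36.1% lower.

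Cxcr3, the receptor for the interferon-induced chemokines CXCL9 and CXCL10, went from 44.1 and 46.2 CPM in resting to 1.33 and 1.59 CPM in activated control cells. That was 30.7-fold lower (log2 change -4.94 ± 0.229 SE, adjusted p = 1.98e-20), the largest fall of any member in control cells, from 1051 reads in the resting group to 35 in the activated one. The fall was 28.2-fold with AGN192403 and 37.8-fold in KO cells, and the differences between these responses and the control's were 0.12 (95% interval -0.55 to 0.79) and -0.30 (-0.98 to 0.37) on the log2 scale. Activated libraries of the 3 conditions overlapped, between 0.944 and 1.76 CPM.

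Klf2 also fell, from 13.6 and 15.4 CPM at rest to 0.916 and 0.671 CPM on anti-CD3 in control cells. The change was 18.2-fold (log2 -4.18 ± 0.320, adjusted p = 4.64e-15), with 26.7-fold in AGN192403 cells and 19.0-fold in KO cells. Activated libraries held only 4 to 18 reads of Klf2 each, and the difference of the activation response from the control's had wide 95% intervals, -1.67 to 0.56 log2 units with AGN192403 and -0.91 to 0.79 in KO cells.

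S1pr1, the egress receptor, went in control cells from 48.1 and 49.2 to 23.7 and 24.0 CPM (2.04-fold, log2 -1.03 ± 0.081, adjusted p = 1.53e-11). With AGN192403 the same stimulus took it from 44.9 and 43.1 to 6.23 and 5.07 CPM, 7.85-fold lower. In KO cells it went from 69.1 and 72.5 to 15.7 and 19.5 CPM, 4.11-fold lower. The libraries of each state were apart from the other state's in all 3 conditions, as they were for every other member but Ccr8. How often this held over all genes was not counted. The activation response of S1pr1 was larger than the control's by 1.94 log2 units with AGN192403 (interaction -1.94 ± 0.156, adjusted p = 2.03e-09) and by 1.01 in KO cells (-1.01 ± 0.117, adjusted p = 5.24e-06). Both interactions kept their calls under every alternative tried.

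Ccr7 rose from 121 and 119 to 439 and 448 CPM in control cells, 3.70-fold (log2 1.89 ± 0.044, adjusted p = 4.83e-22). It rose 5.86-fold with AGN192403, from 89.2 and 91.0 to 512 and 545 CPM, and 4.25-fold in KO cells, from 114 and 119 to 492 and 499 CPM. Ccr7 was thus the only member called higher after activation in any condition, and the range widened with AGN192403 at both ends. The interaction with AGN192403 was 0.66 ± 0.064 (adjusted p = 6.03e-08), and that with the KO was 0.20 ± 0.062 (adjusted p = 0.0631), called under 4 of 20 alternatives only.

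Ccr2, the receptor for CCL2, stood at 739 and 755 CPM at rest and fell to 106 and 104 CPM (7.12-fold, log2 -2.83 ± 0.045, adjusted p = 3.89e-25). It fell 8.14-fold with AGN192403 and 6.70-fold in KO cells. Cxcr6, which binds the membrane-anchored chemokine CXCL16, went from 367 and 382 to 89.8 and 86.5 CPM in control cells, 4.25-fold lower (log2 -2.09 ± 0.048, adjusted p = 2.27e-22). The fall was 3.88-fold with AGN192403 and 3.31-fold in KO cells. The Cxcr6 response of KO cells was smaller by 0.36 log2 units (interaction 0.36 ± 0.066, adjusted p = 0.00131), a call that ended at 0.29 (adjusted p = 0.0532) without activated KO replicate 1. Fyco1, the gene around Cxcr6, moved from 51.5 to 33.5 CPM in control cells.

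Cxcr4 fell from 49.7 and 49.4 to 23.9 and 22.1 CPM in control cells (2.15-fold, log2 -1.11 ± 0.074, adjusted p = 4.87e-13). The fall was 2.98-fold with AGN192403 and 2.37-fold in KO cells. Its interaction with AGN192403 was -0.47 ± 0.120 (adjusted p = 0.00610), but it did not pass the test without activated AGN192403 replicate 1 (-0.37, adjusted p = 0.0671), without the 3 Malat1-rich libraries (-0.33, adjusted p = 0.202) or in DESeq2 (-0.46, adjusted p = 0.0830).

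Ccr8 was close to the limit of detection, with 2 to 17 reads per library. Control cells held 0.799 and 1.06 CPM at rest and 0.750 and 1.43 CPM after activation, and those ranges overlapped (log2 0.20, 95% interval -0.72 to 1.11). In AGN192403 cells it went from 1.16 and 0.787 CPM, with 11 and 11 reads, to 0.189 and 0.368 CPM, with 2 and 5 reads, a log2 change of -1.67 ± 0.644 (adjusted p = 0.0141). This call ended without resting AGN192403 replicate 1 (-1.38, adjusted p = 0.0954), without activated AGN192403 replicate 1 (-1.31, adjusted p = 0.0967), without the 3 Malat1-rich libraries (-1.33, adjusted p = 0.0808) and in DESeq2 (-1.73, adjusted p = 0.0678).

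**Figure D2:**
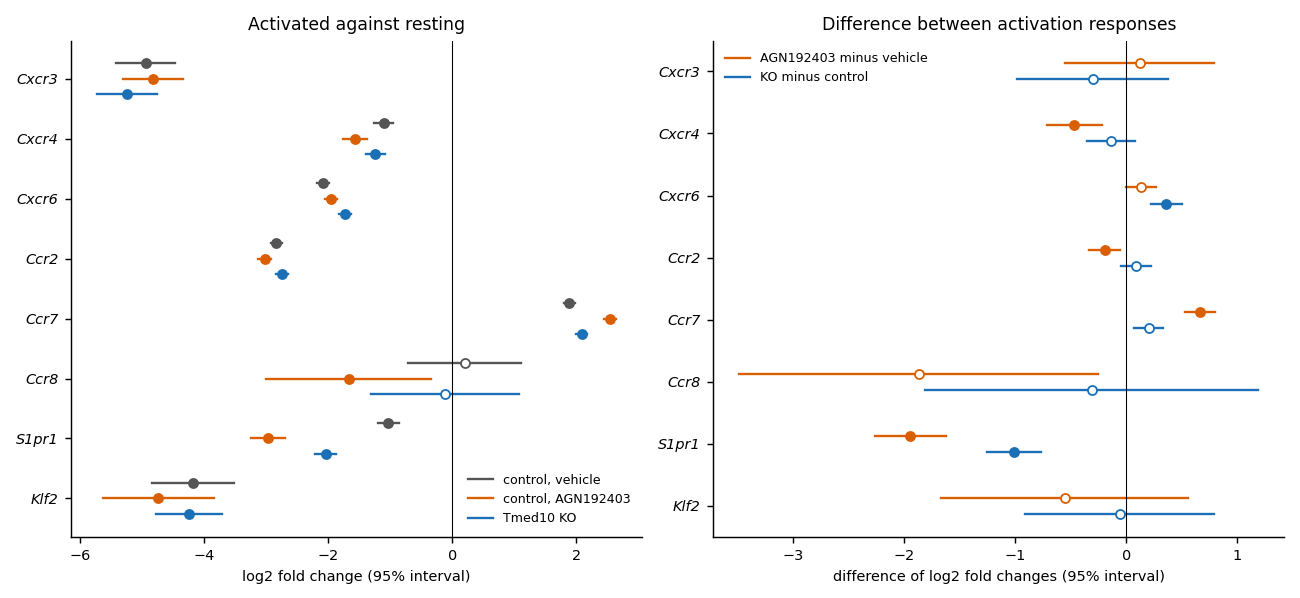
Left, log2 fold change of each member between activated and resting cells in control vehicle cells, AGN192403 cells and Tmed10 KO cells; right, the difference of that response from the control's. Points are edgeR estimates with 95% intervals, filled where the adjusted p was under 0.05; S1pr1 is the only member called in both conditions in the right panel, at -1.94 with AGN192403 and -1.01 in KO cells.

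Counted over the members, the activation response differed with AGN192403 for 4 of 8: Ccr7 upward (8.62% of all genes called higher) and S1pr1, Cxcr4 and Ccr2 downward (11.1% called lower). The Ccr2 difference was small, -0.19 ± 0.067 (adjusted p = 0.0434), and was lost under 16 of 20 alternatives, among them leaving out any 1 of the 12 libraries (-0.15 to -0.21) and leaving out the 3 Malat1-rich libraries (-0.17, adjusted p = 0.177). In KO cells it differed for 2 of 8, Cxcr6 upward (3.07% of genes) and S1pr1 downward (1.89% of genes).

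With the state held fixed, several receptors were lower with AGN192403 already at rest. Of the 8 members, 5 fell (Ccr2, Cxcr4, Ccr7, Cxcr6 and Klf2; 13.7% of all genes called lower) and 0 of 8 rose (11.6% called higher; also 0 at an unadjusted p under 0.05 in edgeR and 0 in DESeq2), with a median of -0.28 over the members against -0.01 over all genes. The estimates of Cxcr3, S1pr1 and Ccr8 (-0.18, -0.15 and -0.01) did not pass the test, although Cxcr3 did without activated AGN192403 replicate 1 (adjusted p = 0.0486) or replicate 2 (adjusted p = 0.0473). Ccr2 was 506 and 525 CPM with AGN192403 against 739 and 755 with vehicle, 1.45-fold lower (log2 -0.53 ± 0.040, adjusted p = 2.16e-10). Cxcr4 was 34.3 and 34.0 CPM against 49.7 and 49.4, also 1.45-fold lower (log2 -0.54 ± 0.068, adjusted p = 1.27e-06). Ccr7 was 89.2 and 91.0 against 121 and 119 CPM, 1.33-fold lower (log2 -0.41 ± 0.050, adjusted p = 7.68e-07).

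The other falls at rest were slight. Cxcr6 was 340 and 349 CPM with AGN192403 against 367 and 382 (log2 -0.12 ± 0.042, adjusted p = 0.0326). Its edgeR call was lost with no expression filter (-0.09, adjusted p = 0.232) and with library totals (-0.09, adjusted p = 0.118). Klf2 was 10.7 and 11.7 with AGN192403 against 13.6 and 15.4 CPM (log2 -0.37 ± 0.123, adjusted p = 0.0268). Both calls were lost in DESeq2 (adjusted p = 0.0726 and 0.267), and that of Cxcr6 also without resting KO replicate 1 or replicate 2 (-0.12, adjusted p = 0.0548 each). They were also lost without resting control replicate 2 (-0.09 with adjusted p = 0.246 for Cxcr6, -0.27 with adjusted p = 0.268 for Klf2), without resting AGN192403 replicate 1 (-0.10 with adjusted p = 0.194 and -0.32 with adjusted p = 0.143) and without resting AGN192403 replicate 2 (-0.14 with adjusted p = 0.102 and -0.45 with adjusted p = 0.0795).

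In activated cells the largest estimated difference with AGN192403 was that of S1pr1. S1pr1 was 6.23 and 5.07 CPM with AGN192403 against 23.7 and 24.0 with vehicle, 4.26-fold lower (log2 -2.09 ± 0.139, adjusted p = 1.11e-12). Cxcr4 was 10.6 and 12.2 CPM against 23.9 and 22.1, 2.00-fold lower (SE 0.099 on the log2 scale, adjusted p = 7.11e-09). Ccr2 was 63.6 and 63.1 CPM against 106 and 104, 1.66-fold lower (log2 -0.73 ± 0.054, adjusted p = 5.37e-11). The libraries of both groups were apart for all 3 receptors, but also for Klf2, which was not called. How often this held over all genes was not counted. In the same groups the sum of the 3 CD4 T cell markers was 72.2 to 74.7 CPM with AGN192403 against 40.5 to 45.5, mostly Zbtb7b (65.1 against 34.2 CPM), while Cd4 itself was at 0.520 against 0.752 CPM. The dendritic cell list summed to 24.6 to 25.9 against 16.2 to 16.4 CPM, mostly Zbtb46 (24.6 against 15.0 CPM). Its markers Itgax (0.221 against 0.418 CPM) and Flt3 (0.420 against 0.878 CPM) went the other way. The part of these lists in the result was not tested. Ccr7 moved the other way, at 512 and 545 CPM against 439 and 448 (1.19-fold higher, log2 0.25 ± 0.040, adjusted p = 1.44e-05), so that its direction under AGN192403 was lower at rest and higher after activation.

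Ccr8 was the fourth member called lower in activated AGN192403 cells, with 7 reads in that group against 26 in the control group (log2 -1.87 ± 0.633, adjusted p = 0.0114). The call ended without activated control replicate 2 (-1.33, adjusted p = 0.198), without activated AGN192403 replicate 1 (-1.53, adjusted p = 0.0834) and in DESeq2 (-1.94, adjusted p = 0.0836). In all, 4 members were lower (18.3% of all genes) and 1 higher (16.4% of all genes), with a median of -0.83 against -0.01 over all genes. Cxcr6 did not differ past the test (85.1 and 92.1 against 89.8 and 86.5 CPM, log2 0.01, 95% interval -0.10 to 0.12), nor did Cxcr3 (log2 -0.06, -0.72 to 0.60) or Klf2 (0.566 and 0.294 against 0.916 and 0.671 CPM, log2 -0.93, -2.01 to 0.16).

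In KO cells fewer members were called than with AGN192403, as was so over all genes. At rest 7.4% of all genes were called in KO cells and 25.4% with AGN192403, and after activation 19.6% and 34.7%. In KO cells S1pr1 was called in opposite directions at rest and after activation. At rest S1pr1 was 69.1 and 72.5 CPM in KO cells against 48.1 and 49.2 in control cells, 1.45-fold higher (log2 0.53 ± 0.066, adjusted p = 6.15e-06). Klf2 was higher too, 23.5 and 21.1 against 13.6 and 15.4 CPM (1.54-fold, log2 0.62 ± 0.108, adjusted p = 0.000406), although DESeq2 gave an adjusted p of 0.0635 at a log2 change of 0.63. Ccr2 was 618 and 607 against 739 and 755 CPM (1.22-fold lower, log2 -0.29 ± 0.040, adjusted p = 3.15e-05). These 2 higher and 1 lower calls stood beside 2.81% and 4.63% of all genes, and the median over the members was -0.02 against 0.00 over all genes. Cxcr4 was level at 49.1 and 50.1 against 49.7 and 49.4 CPM, with a log2 change of 0.00 and a 95% interval from -0.13 to 0.13.

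In activated KO cells S1pr1 was lower, 15.7 and 19.5 against 23.7 and 24.0 CPM (1.39-fold, log2 -0.47 ± 0.097, adjusted p = 0.000783), and without activated KO replicate 1 the value was -0.30 (adjusted p = 0.107). Cxcr6 was higher, 110 and 105 against 89.8 and 86.5 CPM (1.23-fold, log2 0.30 ± 0.052, adjusted p = 0.000144), and kept this call under every alternative. Ccr7 was 492 and 499 against 439 and 448 CPM (log2 0.16 ± 0.040, adjusted p = 0.00465) and Ccr2 was 87.7 and 96.2 against 106 and 104 CPM (log2 -0.20 ± 0.051, adjusted p = 0.00609). Without activated control replicate 1 the adjusted p rose to 0.0550 for Ccr7 (0.15) and to 0.0650 for Ccr2 (-0.18), and without activated KO replicate 1 it was 0.204 for Ccr2 (-0.13). The members called were 2 of 8 higher (10.8% of all genes) and 2 of 8 lower (8.78%), with a median of -0.15 against 0.02 over all genes. Cxcr4 was 21.02 and 20.8 against 23.9 and 22.1 CPM and did not pass the test (log2 -0.14, 95% interval -0.31 to 0.04).

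The KO and the AGN192403 comparisons use the same vehicle libraries as controls, so their values do not count as separate evidence. The KO and AGN192403 groups were therefore also compared directly. At rest 6 of 8 members were higher in KO than in AGN192403 cells and 0 of 8 lower (0 also at an unadjusted p and in DESeq2), where 8.83% of all genes were higher and 7.78% lower, and the median was 0.34 against 0.00 over all genes. The largest estimate was that of Klf2, 23.5 and 21.1 CPM in KO cells against 10.7 and 11.7 with AGN192403 (2.00-fold, log2 1.00 ± 0.114, adjusted p = 3.68e-07). S1pr1 followed (1.61-fold, log2 0.68 ± 0.067, adjusted p = 3.81e-08), and Cxcr4, Ccr7, Cxcr3 and Ccr2 were higher by 0.54, 0.37, 0.31 and 0.25 log2 units. The Cxcr3 difference was lost in DESeq2 (0.34, adjusted p = 0.0741).

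After activation 5 of 8 members were higher in KO than in AGN192403 cells and 0 of 8 lower (1 at an unadjusted p, Ccr7, and 0 in DESeq2), where 13.0% of all genes were higher and 7.34% lower, with a median of 0.66 against 0.02. S1pr1 was 3.07-fold higher (15.7 and 19.5 against 6.23 and 5.07 CPM, log2 1.62 ± 0.143, adjusted p = 2.53e-09). Cxcr4 was 1.82-fold higher (log2 0.87 ± 0.099, adjusted p = 4.22e-07), Ccr2 1.44-fold (log2 0.53 ± 0.054, adjusted p = 1.03e-07) and Cxcr6 1.22-fold (log2 0.28 ± 0.052, adjusted p = 0.000234). For Cxcr4 the direct test thus separated the conditions in both states. All KO libraries lay above all AGN192403 libraries in each state, but libraries of the 2 conditions were apart for every other member but Cxcr3 too. The share of all genes for which this held was not counted. Klf2 was called as well (log2 1.49 ± 0.491, adjusted p = 0.0202) on 30 against 10 reads, and lost that call in DESeq2 (1.51, adjusted p = 0.0595), with only the libraries of the contrast (1.46, adjusted p = 0.0507), without activated AGN192403 replicate 2 (1.05, adjusted p = 0.215), without activated KO replicate 1 (1.59, adjusted p = 0.0807) and without activated KO replicate 2 (1.38, adjusted p = 0.0865).

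**Figure D3:**
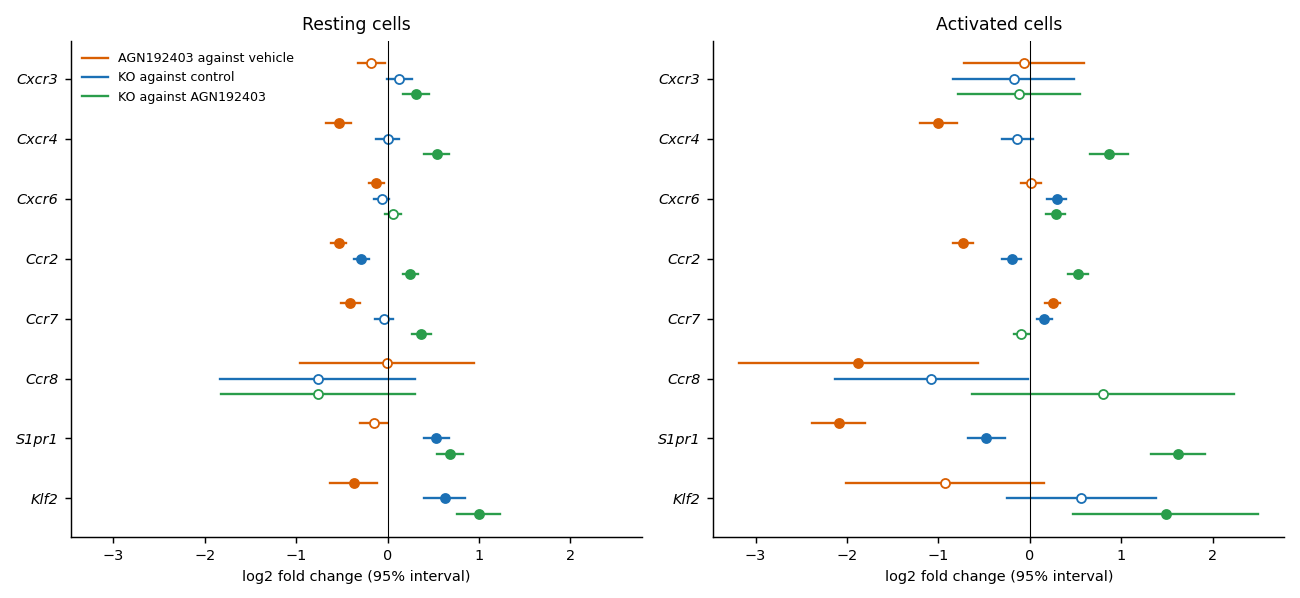
Log2 fold change of each member, with 95% intervals, for AGN192403 against vehicle, Tmed10 KO against control, and KO against AGN192403, at rest (left) and after activation (right). Filled points had an adjusted p under 0.05 in edgeR; S1pr1 with AGN192403 moved from -0.15 at rest to -2.09 after activation, and in KO cells from 0.53 to -0.47.

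The remaining chemokine receptors were mostly silent, with 6 of 17 listed genes tested. On activation of control cells 3 of the 6 rose and 1 fell, against 36.4% and 37.4% of all genes. The list median was 0.56 against -0.02 over all genes. Ccr4, a skin-homing receptor, rose from 51.8 ± 2.56 to 221 ± 1.76 CPM (log2 2.09 ± 0.053, adjusted p = 1.15e-21). AGN192403 lowered Ccr4 in activated cells to 164 ± 6.26 CPM (log2 -0.43 ± 0.044, adjusted p = 1.65e-08). The list counts for AGN192403 were 0 higher and 2 lower at rest and 1 higher and 3 lower after activation. The KO gave 0 higher and 2 lower at rest and 1 higher and 2 lower after activation. Over all genes the shares at rest were 11.6% higher and 13.7% lower with AGN192403, and 2.81% and 4.63% in KO cells. After activation they were 16.4% and 18.3% with AGN192403, and 10.8% and 8.78% in KO cells.

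Of 18 further egress and lymphoid homing genes, 16 were tested, and on activation of control cells 2 rose and 7 fell (median -0.09). Over all genes 36.4% rose and 37.4% fell. The sphingosine-1-phosphate receptors split. S1pr4 fell from 131 ± 0.893 to 26.8 ± 1.49 CPM (log2 -2.29 ± 0.061, adjusted p = 1.42e-21), while S1pr3 rose from 0.929 ± 0.184 to 15.8 ± 1.08 CPM (log2 4.04 ± 0.304, adjusted p = 5.16e-15). S1pr2 fell from 21.7 ± 0.224 to 15.2 ± 0.870 CPM in control cells (log2 -0.51 ± 0.096, adjusted p = 3.64e-05). In activated cells, where S1pr1 was lower with AGN192403, S1pr2 was higher (21.3 ± 0.129 CPM, log2 0.49 ± 0.096, adjusted p = 0.000230), and so was S1pr4 (35.7 ± 0.205 CPM, log2 0.41 ± 0.070, adjusted p = 4.03e-05).

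Cd69, whose protein binds S1PR1 and removes it from the surface, was higher in activated cells under both conditions (0.43 with AGN192403, 0.41 in the KO) and lower in resting KO cells (-0.40 ± 0.053, adjusted p = 1.48e-05). Il7r, a survival cytokine receptor, was lower in KO cells in both states (-0.66 at rest, -0.36 activated). For AGN192403 the list held 1 higher and 5 lower genes at rest, against 11.6% and 13.7% of all genes. After activation it held 4 and 5, against 16.4% and 18.3%. For the KO it held 1 and 6 at rest, against 2.81% and 4.63% of all genes. After activation it held 3 and 2 for the KO, against 10.8% and 8.78%.

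**Figure D4:**
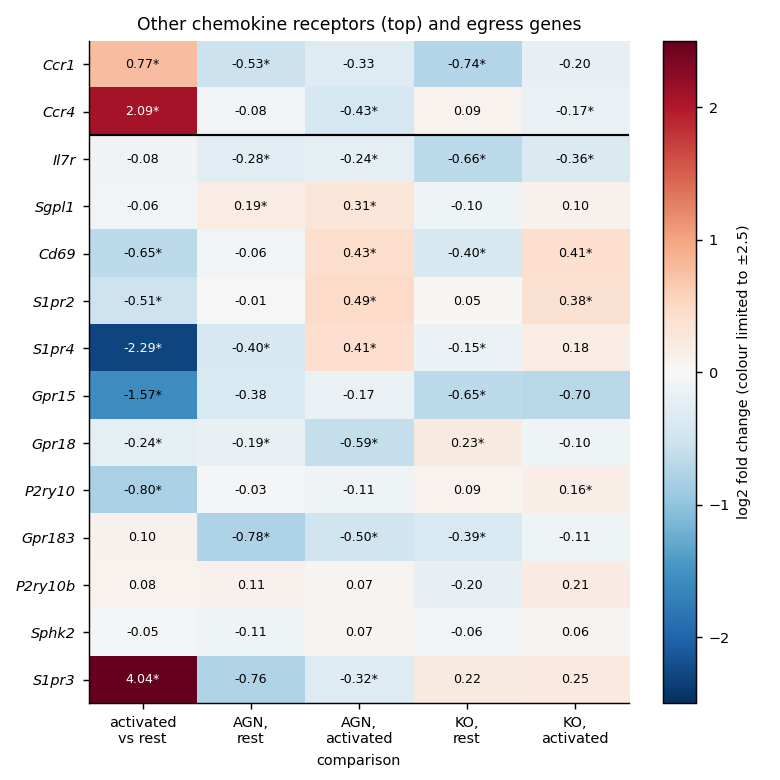
Log2 fold changes of 14 listed genes with at least 5 CPM in some group (2 other chemokine receptors above the line, egress and lymphoid homing genes below it) in 5 comparisons; an asterisk marks an adjusted p under 0.05 and the color stops at ±2.5. Il7r is lower in all 4 columns of AGN192403 and KO, from -0.24 to -0.66.

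Of 29 transcription factors linked to homing, 11 rose and 13 fell on activation of control cells. Over all genes 36.4% rose and 37.4% fell. Klf3, a KLF2 relative, fell from 17.7 ± 0.233 to 2.68 ± 0.223 CPM, and in activated cells it was higher with AGN192403 (5.27 ± 0.650 CPM, log2 0.99 ± 0.200, adjusted p = 0.000229) and in KO cells (5.20 ± 0.263 CPM, log2 0.94 ± 0.199, adjusted p = 0.000848). It was also higher in resting KO cells (log2 0.54 ± 0.093, adjusted p = 0.000431), as Klf2 was. Foxo1, which is known to drive Klf2 and Ccr7, was lower with AGN192403 in both states (-0.41 and -0.43). Tcf7, a memory factor, fell on activation from 209 ± 1.70 to 29.7 ± 1.27 CPM and was higher in activated KO cells (48.5 ± 0.365 CPM). In this list AGN192403 gave 0 higher and 15 lower genes at rest, against 11.6% and 13.7% of all genes. The median there was -0.26 against -0.01 over all genes. After activation AGN192403 gave 10 and 11, against 16.4% and 18.3% of all genes. The KO gave 2 and 4 at rest, against 2.81% and 4.63% of all genes. After activation it gave 5 and 5, against 10.8% and 8.78%.

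Of 36 tested genes for integrins, selectin ligands and adhesion, 8 rose and 21 fell on activation of control cells (median -0.48). Over all genes 36.4% rose and 37.4% fell. The tissue integrin subunits Itgae and Itga1 fell by 3.84 and 4.53 on the log2 scale. Selp, the gene for P-selectin, rose from 0.539 ± 0.227 to 28.6 ± 1.15 CPM, and was 5.92 ± 1.10 CPM in activated AGN192403 cells (log2 -2.29 ± 0.145, adjusted p = 5.41e-13) and 11.6 ± 0.569 in activated KO cells (log2 -1.29 ± 0.116, adjusted p = 7.75e-09). The list counts were 0 higher and 13 lower with AGN192403 at rest, against 11.6% and 13.7% of all genes. After activation they were 6 and 8, against 16.4% and 18.3%. For the KO they were 4 and 4 at rest, against 2.81% and 4.63% of all genes. In activated KO cells they were 4 and 5, against 10.8% and 8.78%.

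Of 40 tested receptor signaling genes, 8 rose and 28 fell on activation of control cells (median -0.58). Over all genes 36.4% rose and 37.4% fell. Rgs16, which shortens chemokine receptor signals, rose from 25.7 ± 0.392 to 185 ± 8.97 CPM, and activated cells had more of it with AGN192403 (245 ± 9.63 CPM, log2 0.40) and in the KO (223 ± 4.30 CPM, log2 0.26). At rest it was lower in KO cells (log2 -0.82 ± 0.098, adjusted p = 3.72e-06). AGN192403 gave 2 higher and 18 lower genes at rest, against 11.6% and 13.7% of all genes. After activation it gave 8 and 14, against 16.4% and 18.3%. The KO gave 1 and 4 at rest, against 2.81% and 4.63% of all genes. In activated KO cells the counts were 5 and 4, against 10.8% and 8.78%.

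The cells also made ligands, 9 of 10 tested chemokine genes rising on activation of control cells and 0 falling, with a median of 7.16. Over all genes 36.4% rose and 37.4% fell. Ccl3, an inflammatory chemokine, reached 1211 ± 60.2 CPM from 1.93 ± 0.0488, and Xcl1 reached 1052 ± 34.1 from 2.06 ± 0.511. Ccl1, the ligand of CCR8, was at 0.0378 CPM in resting and 79.0 ± 1.61 in activated control cells, 97.6 ± 1.42 with AGN192403 and 124 ± 3.76 in KO cells. Cxcl10, a ligand of CXCR3, was 3.39 ± 0.0421 CPM in activated control cells, 8.12 ± 0.267 with AGN192403 (log2 1.26 ± 0.197, adjusted p = 7.96e-06) and 12.05 ± 0.160 in KO cells (log2 1.83 ± 0.188, adjusted p = 3.16e-08). At rest 0 of the 10 were called for either condition in edgeR or DESeq2, and 1 was higher at an unadjusted p under 0.05 in each. After activation 2 were higher and 4 lower with AGN192403, and 5 higher and 1 lower in KO cells. Over all genes the shares at rest were 11.6% higher and 13.7% lower with AGN192403, and 2.81% and 4.63% in KO cells. After activation they were 16.4% and 18.3% with AGN192403, and 10.8% and 8.78% in KO cells.

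Activation itself was checked on 10 control genes, of which 8 rose and 2 fell in control cells, against 36.4% and 37.4% of all genes. With AGN192403 8 rose and 2 fell, against 33.9% and 36.1% of all genes. In KO cells 9 rose and 1 fell, against 37.2% and 36.5%. Ifng rose by 9.14 log2 units in control cells, 8.75 with AGN192403 and 9.20 in KO cells. By this gene, libraries of all 3 conditions carried the stimulus, while not every gene of the list rose. In activated cells Ifng was lower with AGN192403 than with vehicle (log2 -0.65 ± 0.040, adjusted p = 2.10e-12). Over the 10 genes the counts for AGN192403 were 0 higher and 5 lower at rest, against 11.6% and 13.7% of all genes. After activation they were 4 and 4, against 16.4% and 18.3%. For the KO they were 0 and 5 at rest, against 2.81% and 4.63% of all genes. In activated KO cells they were 2 and 4, against 10.8% and 8.78%.

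Genes with the closest profile were found by Pearson's r of log2 CPM over the 12 libraries. The candidates were 9927 genes with a mean of at least 5 CPM over these libraries. Because resting and activated libraries form 2 blocks, high values are common (r of at least 0.9 in 565 to 2352 genes for each member but Ccr8), and r was also taken after the mean of the 6 libraries of each state was removed. On that measure Cxcr4, S1pr1 and Ccr2 were the members most alike, where r was 0.927 for Cxcr4 and Ccr2, 0.899 for Cxcr4 and S1pr1, and 0.797 for S1pr1 and Ccr2. Klf2 reached 0.763 with S1pr1 and 0.736 with Cxcr4, and Ccr7 lay between -0.248 and 0.342 against Cxcr3, Cxcr4, Cxcr6, Ccr2, S1pr1 and Klf2 and at -0.527 against Ccr8, which has few reads.

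The nearest genes differed by member. For Cxcr4 they were Ly6e, Ppp2r5d and Nuf2 (0.987, 0.986 and 0.985), and 461 genes had r of at least 0.9. Without the centering 970 genes had r of at least 0.9 with Cxcr4, and its nearest 3 were Nusap1, Nuf2 and Spc25, which serve the mitotic spindle. The nearest genes of the other members without the centering are not reported here. For S1pr1 the nearest genes after centering were Tgm2, Rpa1 and Tipin (0.986, 0.982 and 0.981), with 294 genes at 0.9 or above. Rpa1 and Tipin are DNA replication genes. For Ccr2 they were Themis, Ctla4 and H3f3b (0.984, 0.983 and 0.981), with 388 such genes. Cxcr6, Ccr7, Ccr8 and Klf2 had 3, 24, 7 and 4 such genes, led by Zbp1 (0.929), Serinc3 (0.959), Naa25 (0.947) and Vrk1 (0.935), and Cxcr3 had 0, with Chrac1 nearest at 0.860. These are descriptions over 12 libraries that share conditions and pairs of libraries per group.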

How the data were processed

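Poly(A) RNA of 12 libraries was sequenced by the authors as stranded single reads and aligned to GRCm38 (mm10) with STAR, and HTSeq counted reads per gene per the labels. The labels name STAR 2.6.0c, while the study's methods name another version, and the strand setting is not given in the sources used here. The deposited values are raw whole-number counts per gene.

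Counts were analysed in R 4.3.3 with edgeR 4.0.16: filterByExpr (13167 of 46603 genes, 99.9% of counts), TMM (factors 0.976 to 1.02), 1 mean per group, quasi-likelihood tests of 11 contrasts in 1 model of the 12 libraries (residual df 6), and Benjamini-Hochberg adjustment over all genes at 0.05. Errors of log2 changes are SE, and intervals are 95%. The scripts were tested on simulated data. Coordinates and exon lengths came from GENCODE, which gave 46091 identifiers a symbol. DESeq2 1.42.0 was an alternative, beside other filters, scalings, a replicate block, subsets and leaving out each library.

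The 8 genes, the lists and the rule for named genes were chosen with earlier results of these data known. The rule named the 8 genes, Tmed10, from each list at most 4 called genes per contrast by absolute log2 change (minimum 5 CPM in the group with more), and the 3 nearest genes of each member. Values of other list genes, and of a named gene in comparisons outside the rule, were chosen after they were seen. Results of some listed genes are not reported here; the list counts include them.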

Additional observations from a re-analysis of the deposited data

Results flagged for a closer look

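The activation response differed from the control's in 6 cases that passed the test of the difference itself (the interaction term of edgeR's quasi-likelihood fit, adjusted over all genes). S1pr1 fell more on activation with AGN192403 (-1.94 log2 units relative to control cells) and in KO cells (-1.01). Ccr7 rose more with AGN192403 (0.663). Cxcr4 and Ccr2 fell more with AGN192403 (-0.467 and -0.193). Cxcr6 fell less in KO cells (0.361). The S1pr1 and Ccr7 differences kept their calls under all 20 alternatives, and the other 3 genes' differences lost theirs under at least 1. Groups of 2 libraries are too small for a test of single outlying libraries.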

How the results depend on the processing

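Over 20 alternatives, 43 of the 56 called member results kept their call and direction, 13 lost the call under at least 1, and 0 of the called values changed sign. Ccr8 could not be fitted under the 5 CPM filter. Of 259 list results of genes the rule named, 205 kept their call. In counts of members called, DESeq2 gave 1 higher in resting KO cells, 3 lower with AGN192403 at rest and 1 lower in the AGN192403 interaction. The shares of all genes called under this and the other alternatives are not reported here. A changed count under an alternative is therefore not read as a result about the members. For the KO interaction, 2 were higher with no expression filter, with the replicate block and with only the libraries of the contrast. Leaving out the 3 Malat1-rich libraries, an alternative added after the data were seen, gave 2 higher and 1 lower in the AGN192403 interaction. For activated KO against AGN192403 cells, 1 (Ccr7) was lower under the 5 CPM filter, with library totals and without the 3 libraries.

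Leaving out 1 library gave 1 to 2 higher and 0 to 2 lower in activated KO cells, 3 to 6 lower with AGN192403 at rest, 0 to 2 higher in the KO interaction, 1 to 3 lower in the AGN192403 interaction and 0 to 1 lower in activated KO against AGN192403 cells. The count of 2 in the KO interaction came without activated AGN192403 replicate 2 (Ccr7 0.21, adjusted p = 0.0207), and the lower Ccr7 in activated KO against AGN192403 cells (-0.12 to -0.15) without either resting AGN192403 library, either resting KO library, activated control replicate 2 or activated AGN192403 replicate 1. The AGN192403 interaction of Ccr8 was called without activated control replicate 1 (-2.26, adjusted p = 0.0479). Signs turned only among values that were not called. Without 1 library, Cxcr3 ranged from -0.62 to 0.28 with AGN192403 after activation, -0.45 to 0.46 in its interaction and -0.46 to 0.46 between activated KO and AGN192403 cells. Cxcr4 ranged from -0.00288 to 0.0432 in resting KO cells, Ccr7 from -0.0571 to 0.0198 there, Cxcr6 from -0.0485 to 0.0754 with AGN192403 after activation and Ccr2 from -0.00702 to 0.127 in the KO interaction. Ccr8 ranged from -0.32 to 0.59 on control activation, -0.26 to 0.30 with AGN192403 at rest and -0.70 to 0.18 in the KO interaction, and Klf2 from -0.30 to 0.18 in the KO interaction. Without the 3 libraries Cxcr3 was 0.14 with AGN192403 after activation and Klf2 was 0.26 in the KO interaction. Cxcr4 in resting KO cells was -0.000481 with no expression filter, -0.00431 under the 5 CPM filter, -7.56e-05 with the replicate block and -0.00524 with only the libraries of the contrast. Ccr8 with AGN192403 at rest was 0.0256 with no filter, 0.0295 with library totals, 0.000192 with only the libraries of the contrast and 0.0242 in DESeq2. The cause of these changes was not tested.

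Libraries share replicate numbers, but nothing says that a number marks a shared source, and deviations of same-numbered libraries correlated at -0.00507 to 0.239 over 15 pairs of groups (3 above 0.1). With the replicate block the only member call to change was that of Ccr7 in the KO interaction (0.20, adjusted p = 0.0341 in edgeR). Groups of 2 and the 2 to 24 reads per library of Cxcr3, Ccr8 and Klf2 after activation limit what can be seen for these genes.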

Other observations

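Around the Ccr2 and Cxcr6 genes on chromosome 9, neighboring receptor genes did not move alike on activation of control cells. Ccr2 (log2 -2.83) and Cxcr6 (-2.09) fell, whereas Ccr1, at chr9:123962124-123968692 between Cxcr6 and Ccr2, rose from 6.61 to 11.3 CPM (log2 0.77 ± 0.157, adjusted p = 9.12e-05), and Ccr3, next to Ccr2, went from 0.339 to 3.26 CPM (log2 3.21 ± 0.598, adjusted p = 1.17e-06). Xcr1, in the same stretch, was at 0.0757 and 0 CPM. The genes were named here after their values were seen.

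Klf2 and S1pr1 were both called higher at rest in KO cells (0.62 and 0.53), Klf2 not in DESeq2 (adjusted p = 0.0635). In activated KO cells S1pr1 was called lower (-0.47). Klf2 did not pass the test there, with 0.56 (95% interval -0.25 to 1.38) on 30 against 19 reads. Whether the 2 genes part after activation was not tested.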
